A study of Homo sapiens with 12 samples.

Results

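The response of LNCaP cells to the synthetic androgen R1881 was measured on 6 of the 12 arrays of the series, 3 of cells given R1881 and 3 of cells given ethanol vehicle, all transfected with control siRNA. It was described over the 10265 genes, of 19775 with a probe set of a single platform gene symbol, that had a log2 value above 4 on 3 or more of the 12 arrays. Where several probe sets of a gene passed, the one with the highest mean stood for it. LNCaP is an established human prostate adenocarcinoma line of luminal type, so that every value comes from a single line in culture and none from prostate tissue. Both groups had been kept without androgen for 48 h and transfected with the control siRNA. At 42 h after transfection they were given 5 nM R1881 or vehicle for 48 h, so that the arrays hold a late state of the response at a single dose and time. The other 6 arrays are of cells that received siRNA against the transcription factor SRF in place of the control siRNA, with the same 2 treatments. They entered the fit and serve here only for a comparison of the R1881 effect at the end. The arrays are labelled as biological replicates, but no label ties them to cultures grown apart, and the spread behind each p-value may in part be technical.

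R1881 binds a nuclear hormone receptor that is held by chaperones in the cytoplasm, enters the nucleus with its ligand, and acts on chromatin beside pioneer factors and coregulators. In luminal prostate cells androgen is known for maintaining the secretory programme, in which kallikrein proteases and glycoproteins are made in the endoplasmic reticulum, modified in the Golgi and exported. It is also known to act on growth, and in LNCaP cells a low dose can favour division and a high dose restrain it.

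The 6 arrays were alike in overall signal. Between 37.3% and 37.9% of the 54675 probe sets lay above log2 4, array medians ran from 2.97 to 3.06, and the number of arrays limits the precision. Arrays of the same treatment correlated at 0.997 to 0.998 over all probe sets, and vehicle arrays correlated with R1881 arrays at 0.978 to 0.980. All 12 luminal prostate markers with a probe set, among them KLK3, HOXB13, KRT8 and CDH1, had means above log2 4 in both groups. Of the basal or mesenchymal markers VIM and TWIST1 alone of 10 did, with KRT5 and KRT14 under that level. The summed log2 level of these 10 was 36.1 in vehicle and 36.3 in R1881. Among 9 fibroblast markers COL1A1 was above 4 in both groups and COL3A1 in vehicle only, where it lay at 6.45 against 2.97 in R1881, and the summed level was 31.0 and 28.0. LCP1 alone of 7 leukocyte markers, VWF alone of 5 endothelial markers and, in vehicle, ENO2 alone of 7 neuroendocrine markers were above 4, with PTPRC, PECAM1 and CHGA under it. The GAPDH control probe sets, which measure RNA integrity, differed by 0.14 ± 0.09 between the 3-prime and the 5-prime end in vehicle and by 0.46 ± 0.02 in R1881 (SD, n = 3 each, log2). The exact two-sided permutation p was 0.1, the smallest that 3 against 3 arrays allow. For the ACTB control the mean difference between the ends was 0.13 larger in R1881 than in vehicle (exact p = 0.2). The part of this end difference in the results was not tested beyond the fit given with the counts.

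R1881 moved most of the expressed genes, most of them by little. In limma, 6225 genes or 60.6% of those tested were called at a Benjamini-Hochberg adjusted p under 0.05, 2758 of them higher (26.9%) and 3467 lower (33.8%). At a change of 2-fold or more 727 genes were higher (7.08%) and 725 lower (7.06%), while 4773 calls were under 2-fold and 3039 under 1.5-fold. The middle of the distribution stayed near 0, with a median change of -0.05 on the log2 scale and quartiles at -0.42 and 0.29. Above 8-fold the rises outnumbered the falls, 80 against 52, and above 32-fold they numbered 11 and 8. The median standard error of a change was 0.10. With the GAPDH end difference as a covariate, an alternative added after seeing the data, 3924 genes were called, 1490 higher and 2434 lower. In the text below "rose" and "fell" are used only of genes called in the fit as reported, and a change is the R1881 mean minus the vehicle mean on the log2 scale, so that 1 is 2-fold. Counts of list members are to be read against the 26.9% of all genes that rose and the 33.8% that fell.

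**Figure D1:**
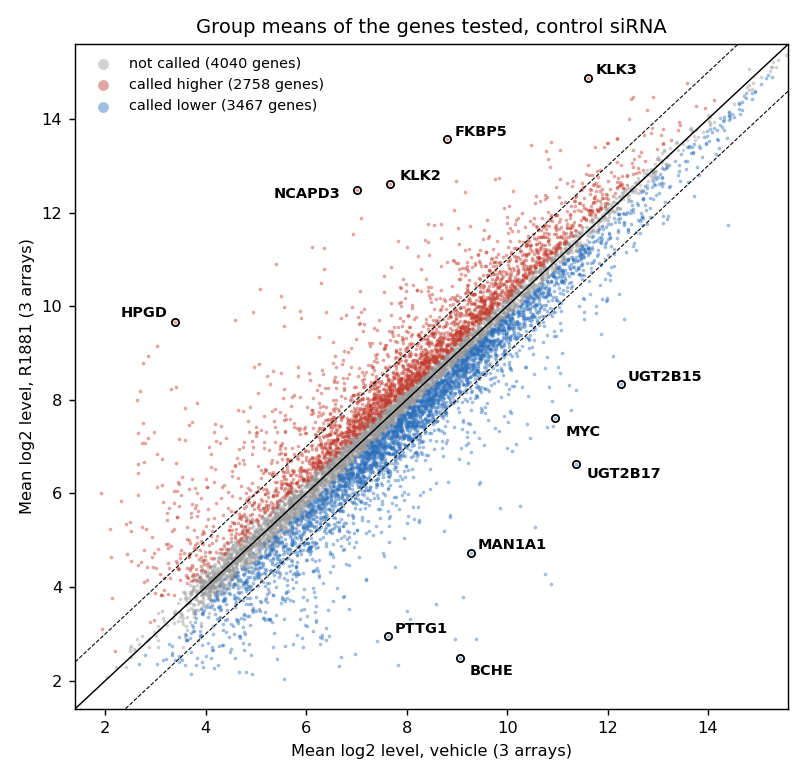
Mean log2 level of each of the 10265 genes tested with vehicle (x axis) and with R1881 (y axis), 3 arrays each; the solid line is equality and the dashed lines are 2-fold. The 2758 genes called higher (red) and 3467 called lower (blue) flank the 4040 not called (grey), and genes far from the line include HPGD and BCHE, each of which lies under log2 4 in 1 of the groups.

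Other probe sets of the same genes moved alike. Of 692 genes called at 2-fold or more that had a further passing probe set, 669 (96.7%) had the same sign on all of them, and on 438 every probe set passed 2-fold. DOCK1 and SERP1 alone had a probe set that moved 2-fold the other way. For SERP1, which encodes a small endoplasmic reticulum membrane protein, the probe set used changed by 1.15 while others ranged from -1.05 to 1.48, so its direction is not settled. Agreement was lower over all 5035 genes with several passing probe sets, called or not and with these 692 included, of which 76.5% had 1 sign.

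Some genes left or entered the range above background. In 148 genes R1881 arrays and no vehicle array lay above log2 4, and 32 of these had passed the filter through those R1881 arrays alone. In 233 genes it was vehicle arrays and no R1881 array, 19 of them through these alone. Such genes had to differ, and their folds depend on the background estimate. Among the 9462 genes above 4 on all 6 arrays the calls were as frequent (60.7%), with 600 higher and 545 lower at 2-fold or more.

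The largest rises among genes clear of background in both groups joined genes of several functions. NCAPD3, a subunit of the condensin II complex that compacts mitotic chromosomes, read 7.10, 6.98 and 6.97 in vehicle and 12.49, 12.47 and 12.45 in R1881. The change of 5.46 ± 0.07 (SE) is 43.9-fold. ANKRD37, an ankyrin repeat protein known for its response to hypoxia, was at 6.23, 5.92 and 6.17 and then at 11.18, 11.22 and 11.40. FKBP5, a co-chaperone of steroid receptors and a classical hormone target, was at 8.89, 8.72 and 8.80 in vehicle and 13.51, 13.57 and 13.61 in R1881, a rise of 4.76 ± 0.08 (SE). In these 3 genes the arrays of a group lay close together and the groups were far apart. Groups without overlap were required of the genes in this ranking and were common, at 67.5% of all genes tested. AGR2, a disulfide isomerase of the endoplasmic reticulum needed for mucin folding, rose by 4.79, and the Notch-related transcriptional regulator HES6 by 4.60. GNMT, the enzyme that methylates glycine, rose by 4.44, LIFR, the receptor of leukaemia inhibitory factor, by 4.20, and CENPN, a centromere protein that reads the centromeric nucleosome, by 3.69. The peroxisome assembly gene PEX10 rose by 3.57 and the fatty acid hydroxylase gene CYP2U1 by 3.49. KLK2 and UGT2B28, the other members of the 12, are described with their families.

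The largest falls of the same kind included metabolic enzymes, a growth regulator and imprinted or developmental genes. DDC, the decarboxylase that makes dopamine and serotonin, read 12.81, 13.04 and 13.05 in vehicle and 8.50, 8.69 and 8.51 in R1881. It fell by 4.40 ± 0.08 (SE), or 21.2-fold. MYC, the transcription factor that drives growth and ribosome synthesis, was at 10.85, 11.05 and 10.94 in vehicle and at 7.50, 7.75 and 7.61 in R1881. Its fall of 3.33 ± 0.09 (SE) is 10.0-fold, and every R1881 array lay more than 3 under every vehicle array. The imprinted zinc finger gene PEG3 fell by 3.48 and PRAC1, a small nuclear protein of prostate and hindgut, by 3.47. GASK1B, a Golgi kinase-like gene, fell by 3.37, the glycosaminoglycan epimerase DSEL by 3.27, the semaphorin SEMA6A by 3.26 and the lipid transporter ABCA12 by 3.21. SERPINI1, which encodes the protease inhibitor neuroserpin, fell by 3.19 and MANEA, a Golgi endomannosidase, by 3.17. UGT2B17 and UGT2B15 complete these 12. The adjusted p of the 24 genes in limma ran from 4.63e-13 to 1.13e-07.

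**Figure D2:**
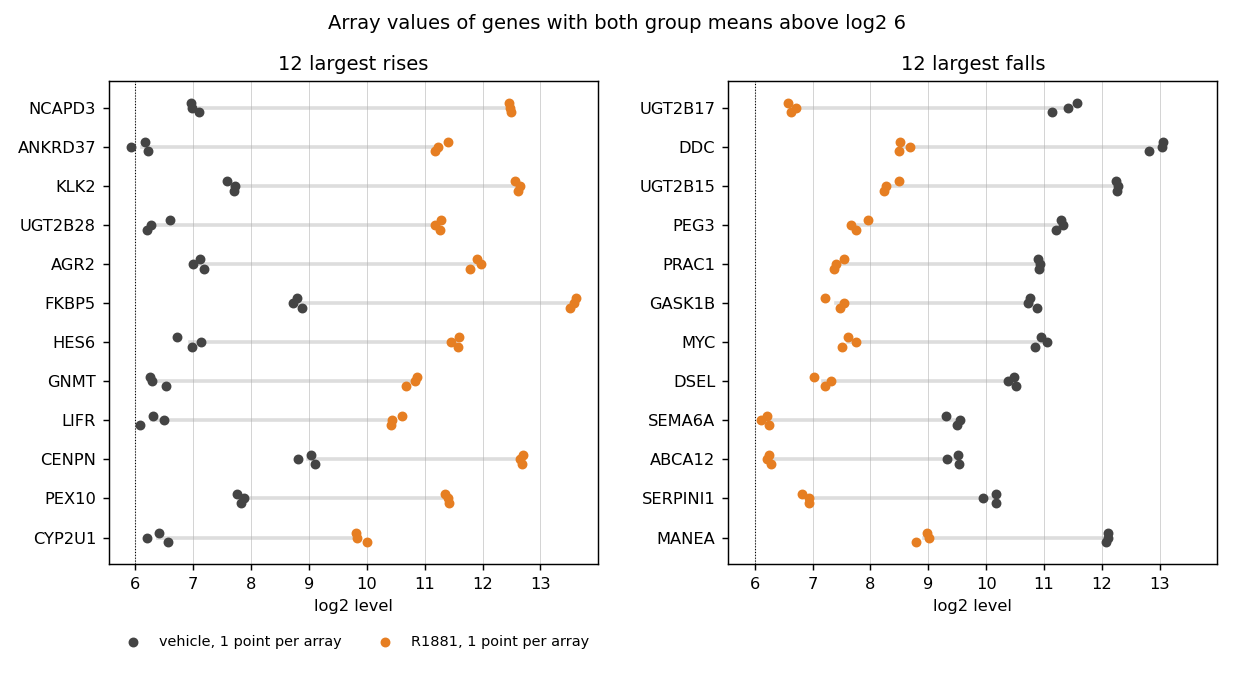
Log2 level on each array for the 12 largest rises and the 12 largest falls among genes called, with groups that did not overlap and both means above log2 6; black points are the 3 vehicle arrays, orange points the 3 R1881 arrays, and the dotted line marks log2 6. In all 24 genes the spread within a group is small beside the gap between the groups, as for NCAPD3 at 7.01 and 12.47 and MYC at 10.95 and 7.62.

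Another 31 genes went from under log2 4 on every vehicle array to above 6 on every R1881 array, and 21 went the other way. HPGD, which inactivates prostaglandins, was at 2.87, 3.58 and 3.74 in vehicle and 9.59, 9.75 and 9.62 in R1881. ORM1, an acute-phase plasma glycoprotein, went from a mean of 3.31 to 8.23, and PGC, the precursor of the aspartic protease gastricsin, from 3.41 to 8.26. In the other direction BCHE, which encodes butyrylcholinesterase, was at 9.23, 8.88 and 9.10 in vehicle and 2.37, 2.56 and 2.49 in R1881. PTTG1, the securin that delays the separation of sister chromatids until anaphase, went from 7.62 to 2.95. NUSAP1, a microtubule-binding spindle protein, went from 7.41 to 2.85, and the fibrillar collagen gene COL5A2 from 8.01 to 3.49. The low value of each pair is near background, so these differences have no exact fold.

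Genes of secretion and hormone action were examined by role, starting with the proteases. KLK3, the protease known as prostate-specific antigen, was at 11.63, 11.61 and 11.61 in vehicle and 14.89, 14.86 and 14.89 in R1881, and rose by 3.26 ± 0.06 (SE). KLK2, the protease that activates it, was lower in vehicle at 7.71, 7.73 and 7.59 than in R1881 at 12.62, 12.65 and 12.57, a rise of 4.94 ± 0.08 (SE). The membrane protease TMPRSS2 rose by 2.97 and KLK4 by 2.50. Of 16 proteases and inhibitors tested 9 rose and 4 fell, with SERPINI1, the lysosomal protease CTSH at -1.24 and the peptidase MME at -0.98 among the falls and a list median of 0.43. The proximal promoters of KLK3 and KLK2 carry the known androgen response element of KLK3 and its counterpart, shown here because both genes rose. The sequences are from RefSeq on GRCh38.p14, plus strand, at chr19:50854695-50854809 for KLK3 and chr19:50873213-50873327 for KLK2, with the 15-base element in capitals.
KLK3: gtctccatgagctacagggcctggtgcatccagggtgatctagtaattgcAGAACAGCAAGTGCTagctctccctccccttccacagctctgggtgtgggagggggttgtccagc
KLK2: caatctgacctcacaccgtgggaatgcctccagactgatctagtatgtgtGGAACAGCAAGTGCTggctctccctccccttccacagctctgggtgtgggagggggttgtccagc
Counted from 1 at the 5-prime end of the element, the KLK2 stretch differed from that of KLK3 by A1G, and the KLK3 element differed from the palindrome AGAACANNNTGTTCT by T10A and T13G. On either strand the full palindrome lay in none of the 12420 promoters of tested genes, each from 250 bases before to 50 after a start, and in 1 of the 35116 promoters in the table. Its half-site AGAACA was in 9.59% of promoters of tested genes, 9.09% of those of genes higher by 2-fold and 11.3% of those of genes lower by 2-fold. At 8-fold or more it was in 16 of 99 promoters of higher genes and 11 of 61 of lower genes, few promoters of which several can belong to 1 gene. A match is a description of letters and not a site of binding.

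Other secreted products of the prostate and of glands moved upward as a list. Of 10 tested, 8 rose and 2 fell, with a median of 2.27 where all genes had -0.05. Of the 6 above log2 4 on all 6 arrays 4 rose and 2 fell, and the median includes members near background in vehicle, such as ORM1 and PGC, whose changes have no exact size. AZGP1, a zinc-binding glycoprotein of seminal fluid, rose by 3.27 and MSMB, the beta-microseminoprotein, by 2.93. ACP3, the prostatic acid phosphatase, fell by 0.31 and the trefoil peptide TFF1 by 0.72, a call lost without vehicle array 1 or 2 or R1881 array 1 or 3, with changes of -0.66 to -0.53. Genes that the glucocorticoid receptor is known to induce through the same kind of element also moved, 12 of 17 higher and 3 lower, with a median of 1.09. ERRFI1, a feedback inhibitor of ERBB receptors, rose by 3.13, the calcium-binding S100P by 2.74, the kinase SGK1 by 2.51 and GADD45B by 2.30. The metallothioneins MT2A and MT1X fell by 0.82 and 0.90, and the glucocorticoid target KLF9 by 0.95.

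Enzymes that clear androgens split within 1 family. UGT2B15, UGT2B17 and UGT2B28 encode glucuronosyltransferases that conjugate steroids for excretion. UGT2B17 was at 11.14, 11.41 and 11.58 in vehicle and 6.62, 6.72 and 6.58 in R1881, and fell by 4.74 ± 0.12 (SE). UGT2B15 was at 12.26, 12.27 and 12.25 and then at 8.24, 8.26 and 8.49, a fall of 3.93 ± 0.09. UGT2B28 was at 6.21, 6.28 and 6.60 in vehicle and 11.27, 11.17 and 11.29 in R1881, and rose by 4.88 ± 0.10. None of the 3 had overlapping groups, as was the case for 67.5% of all genes tested. The opposite direction is within probe sets and does not compare their levels. A second passing UGT2B15 probe set changed by -3.99, while UGT2B17 and UGT2B28 rested on 1 probe set each. The genes are close in sequence, and the probe sets of UGT2B15 and UGT2B28 have the platform suffix for probes that can match several transcripts, so the assignment of the signal to a gene is uncertain. UGDH, which makes the UDP-glucuronate these enzymes use, rose by 2.33, the steroid reductase SRD5A1 by 1.60 and HSD17B11 by 1.66. Of 13 genes of steroid metabolism 5 rose, 3 fell and 5 were not called, with a median of 0.04.

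Factors that work beside the receptor changed unevenly. Of 19 pioneer and partner transcription factors 10 rose (52.6%) and 5 fell (26.3%), where 26.9% of all genes rose and 33.8% fell. Their median was 0.29. FOXA1, the pioneer factor that opens chromatin for the receptor, was at 10.27, 10.27 and 10.39 in vehicle and 10.35, 10.38 and 10.41 in R1881. Its change of 0.07 ± 0.07 (SE) was not called (limma adjusted p = 0.370). GATA2, a partner factor, fell by 1.38 and the homeobox gene HOXB13 by 1.15. KLF5, a factor of epithelial growth, rose from 4.75, 5.14 and 4.34 to 7.62, 7.77 and 7.89. The epithelial ETS factor SPDEF rose by 2.64 and CREB3L4, a membrane-bound factor of secretory cells, by 2.13. SNAI2 rose by 2.42 from a vehicle mean of 3.27, near background. Of 16 coregulators 4 rose and 10 fell, none by 2-fold, with NCOA2 at -0.88, the corepressor NRIP1 at -0.73 and the demethylase KDM1A at -0.98. Chaperones of the receptor fell by little, HSP90AB1 by 0.48 and FKBP4 by 0.77, whereas FKBP5 rose. The elongation factor genes ELL2 and EAF2 rose by 3.28 and 5.49, while 16 of 27 genes of elongation and the transcription machinery fell and 5 rose.

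Most cell division genes fell and few rose. Of 34 kinetochore and spindle genes 29 fell and 1 rose, where 33.8% of all genes fell, and their median was -0.97. Only 9 of the 34 were above log2 4 on all 6 arrays, 6 of them lower and 1 higher, and the falls named here end near background in R1881, so that they and the median have no exact size. BUB1B, a checkpoint kinase, went from 7.01, 6.40 and 6.66 in vehicle to 2.30, 2.70 and 2.52 in R1881. The kinetochore gene NDC80 fell by 2.93, the contractile ring gene ANLN by 2.93, the midzone gene PRC1 by 2.82 and TPX2, which activates the Aurora A kinase, by 2.89. CENPN was the member that rose, on all 3 passing probe sets, by 3.69, 5.23 and 5.64. Among 23 genes of mitotic entry and exit 19 fell and 1 rose, with a median of -1.48. Of the 13 above log2 4 on all 6 arrays 11 fell and 1 rose, and CCNB2, HMMR, CDC20 and TOP2A had R1881 means under 4. CCNB2, a mitotic cyclin, read 7.12, 6.63 and 6.80 in vehicle and 4.02, 3.02 and 3.54 in R1881. HMMR, a spindle assembly factor, fell by 3.01, CDC20, which activates the anaphase-promoting complex, by 2.83 and the topoisomerase TOP2A by 2.55. CDC25A, a phosphatase that activates cyclin-dependent kinases, was at 6.15, 6.03 and 6.18 in vehicle and at 7.91, 7.74 and 7.70 in R1881 and rose by 1.66 ± 0.20 (SE), where CDC25B was at -0.48, a call lost without vehicle array 2 or R1881 array 1 or 3 (changes of -0.41 to -0.35). The proliferation marker MKI67 lay under log2 4 on all 6 arrays and was not called (change -0.11).

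The condensins and cohesins showed the same exception pattern. Of 21 genes 12 fell and 3 rose, with a median of -0.34. NCAPG and SMC4, of condensin I and of both condensins, fell by 1.37 and 1.34 and NCAPD2 by 1.02. Sororin (CDCA5), which stabilises cohesin, fell by 1.96, to an R1881 mean of 3.73, near background. The condensin II gene NCAPD3 rose by the 5.46 given above, and its partner NCAPH2 was not called (change -0.03). The cohesin regulator PDS5B rose by 0.69 and STAG1 by 0.56.

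Promoters of these division genes share short sequences that the choice of the lists did not use. The cell cycle genes homology region (CHR), TTTGAA, is known as a binding site of the DREAM and MuvB complexes, which repress and then activate mitotic genes. It was found on either strand in 21 of 29 promoters of kinetochore and spindle genes (72.4%) and in 13 of 28 of mitotic entry and exit genes (46.4%), where 10.2% of promoters of tested genes held it. By direction alone the CHR was in 11.7% of promoters of genes higher by 2-fold and 15.1% of those of genes lower by 2-fold. The CCAAT box, which can overlap the CHR by a base, was in 23 of 29 and 21 of 28 of these promoters, against 35.8% of those of tested genes. For genes higher and lower by 2-fold its shares were 36.5% and 37.5%. Promoter stretches of 4 members with large falls are shown with every CHR match on either strand in capitals, from RefSeq on GRCh38.p14. They lie at chr15:40161016-40161068 (BUB1B), chr7:36389812-36389861 (ANLN), chr15:59105087-59105145 (CCNB2) and chr5:163460580-163460631 (HMMR), all on the plus strand.
BUB1B: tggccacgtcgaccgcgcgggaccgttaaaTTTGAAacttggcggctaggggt
ANLN: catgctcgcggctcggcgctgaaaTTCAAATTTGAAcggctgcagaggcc
CCNB2: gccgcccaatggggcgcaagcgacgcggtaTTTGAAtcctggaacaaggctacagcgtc
HMMR: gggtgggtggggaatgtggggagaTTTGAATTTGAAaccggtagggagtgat
HMMR holds a second match directly before the other, and ANLN one read on the other strand, so their capitals run on. In all 4 the match nearest the transcription start begins 20 to 29 bases before it, at 23 bases in BUB1B and 22 in HMMR.

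Genes of DNA replication and nucleotide synthesis had smaller median falls, though single members of nucleotide synthesis fell as deeply, down to -4.96. Of 30 genes of the replication origin and fork 19 fell, 1 rose and 10 were not called, with a median of -0.52. GINS1, of the replicative helicase, fell by 2.21, the helicase subunit MCM4 fell by 1.73, its partner MCM2 fell by 1.68, and the clamp loader gene RFC3 by 1.26, while the member called higher, RFC5, read 0.64 on the probe set used and -0.90 and -0.61 on its other 2 passing probe sets, so its direction is not settled. Of 19 nucleotide synthesis genes 12 fell and 4 rose, with a median of -0.58. TYMS, which makes thymidylate, was at 9.93, 9.69 and 9.94 in vehicle and 5.39, 5.67 and 5.97 in R1881. The thymidine kinase TK1 fell by 2.70, to an R1881 mean of 3.48, near background. The paralogous enzymes of guanine nucleotide synthesis moved in opposite directions. IMPDH2 fell from 11.49, 11.63 and 11.50 to 9.85, 9.83 and 9.93, and IMPDH1 rose from 5.90, 5.89 and 5.67 to 7.49, 7.40 and 7.32. The E2F site TTTGGCGC was in 7 of 36 promoters of replication genes (19.4%) and in 0.982% of those of tested genes. By direction alone it was in 1.08% of promoters of genes higher by 2-fold and 0.635% of those of genes lower by 2-fold. It is shown for POLA1, the catalytic subunit of DNA polymerase alpha, which fell by 0.94, and for the helicase gene MCM6, which fell by 0.93. The stretches are at chrX:24693751-24693818 (plus strand) and chr2:135876496-135876563 (minus strand), from RefSeq on GRCh38.p14, and in POLA1 the capitals are the site read on the other strand.
POLA1: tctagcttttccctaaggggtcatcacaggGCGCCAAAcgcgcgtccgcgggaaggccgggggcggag
MCM6: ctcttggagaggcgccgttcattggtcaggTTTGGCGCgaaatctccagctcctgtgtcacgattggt
Repair genes that work with replication moved down too, 11 of 19 homologous recombination and Fanconi genes lower and 2 higher, with BARD1 at -2.91 and RAD54B at 1.08. Among 26 regulators of the G1 phase 13 fell and 4 rose, with the cyclins CCNE2, CCNE1 and CCND1 at -2.05, -1.48 and -1.37 and the kinase inhibitor CDKN2B at 1.31. The inhibitor CDKN1A was not called (change 0.15). Of 33 chromatin writers and readers 25 fell and 2 rose, with EZH2 at -1.32 and TET2 at -1.41. UHRF1, which guides maintenance methylation of DNA, led at -3.06, with an R1881 mean of 3.06, near background.

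Genes of ribosome production fell too, most by less than 2-fold. Of 37 ribosome biogenesis genes 30 fell and 1 rose, with a median of -0.50. WDR12, of the complex that matures the large subunit, was at 9.18, 9.15 and 9.32 in vehicle and 7.41, 7.59 and 7.49 in R1881. The nucleolar methyltransferase fibrillarin (FBL) was at 10.93 ± 0.06 in vehicle (SD, n = 3) and at 9.47 on each of the 3 R1881 arrays, and the nucleolar phosphoprotein NOLC1 fell by 0.91 and nucleolin (NCL) by 0.82. UTP15 was the member that rose, by 0.47, a call that was lost when any of 4 of the 6 arrays was left out and with 1 probe set in place of the other. The changes were smaller in the ribosomal proteins themselves, of which 46 of 56 fell and none rose, with a median of -0.33. The E-box CACGTG, a sequence that MYC and other factors bind, was in 16 of 39 promoters of the biogenesis genes (41.0%) and in 9.77% of promoters of tested genes. By direction alone it was in 9.96% of promoters of genes higher by 2-fold and 8.68% of those of genes lower by 2-fold. It is shown for DDX21, a nucleolar RNA helicase that fell by 0.60, and for NOP10, of the pseudouridylation complex, which fell by 0.37, at chr10:68956586-68956646 (plus strand) and chr15:34343137-34343177 (minus strand) on GRCh38.p14, from RefSeq.
DDX21: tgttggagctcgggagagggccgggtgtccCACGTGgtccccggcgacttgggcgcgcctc
NOP10: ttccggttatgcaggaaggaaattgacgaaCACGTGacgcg
Of 48 splicing factors 32 fell and 3 rose, with HNRNPA1 at -1.16. Of 46 genes of translation initiation 22 fell (47.8%) and 11 rose (23.9%), where 33.8% of all genes fell and 26.9% rose. Of 75 mitochondrial ribosomal proteins 15 rose and 23 fell (30.7% lower where all genes had 33.8%), and of 32 complex I subunits 6 rose and 7 fell (21.9% lower).

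The early secretory pathway rose broadly and by less than 2-fold in most genes. Of 45 genes of COPII and COPI vesicles and Golgi traffic 40 rose and none fell, where 26.9% of all genes rose, and the median was 0.68. SEC24D, a cargo adaptor of the COPII coat, was at 6.49, 5.88 and 5.84 in vehicle and 8.22, 8.42 and 8.62 in R1881. KDELR3, a receptor that returns proteins to the endoplasmic reticulum, was at 4.25, 4.08 and 4.53 and then at 7.27, 7.10 and 6.88, and CREB3L2, a factor known to induce COPII genes, rose by 1.92. In these 3 genes no R1881 array reached down to a vehicle array, and groups did not overlap in 67.5% of all genes tested. SEC23A, the partner of the SEC24 adaptors, was not called (change -0.09). Among 48 genes of translocation and N-glycosylation 36 rose and 3 fell, with a median of 0.52. SSR3, of the translocon-associated complex, rose by 1.59, the signal peptidase gene SPCS3 by 1.54 and the oligosaccharyltransferase gene STT3A by 1.01. MAN1A1, a Golgi mannosidase that trims N-glycans, went against the list at 9.30, 9.21 and 9.31 in vehicle and 4.58, 4.30 and 5.30 in R1881. All 9 disulfide isomerases and thioredoxin-domain genes tested rose, with a median of 0.72, up to TXNDC16 at 1.52.

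Glycan and proton pump genes followed in part. Of 32 genes of O-glycans, sialic acid and hexosamine 20 rose and 7 fell, with a median of 0.62. ST6GALNAC1, which adds the sialic acid of the sialyl-Tn antigen, was at 4.54, 4.78 and 4.42 in vehicle and 9.68, 9.71 and 9.74 in R1881. UAP1, which makes UDP-N-acetylglucosamine, was at 10.43, 10.49 and 10.53 and then at 13.41, 13.47 and 13.43. GALNT7, which starts O-glycan chains, rose by 2.13 and its relative GALNT10 fell by 2.25. Of 15 vacuolar ATPase subunits, which acidify Golgi and lysosomes, 10 rose and 1 fell. Of 43 lysosome and autophagy genes 13 rose and 9 fell, shares of 30.2% and 20.9% where all genes had 26.9% and 33.8%. WIPI1, an autophagosome scaffold, rose by 3.71 and ATG3, the enzyme that lipidates LC3, fell by 1.80. Of 38 genes that ATF4 is known to induce 24 rose and 5 fell. Their median was 0.46, with the cystine carrier SLC7A11 at 1.56 and CHAC1, which cleaves glutathione, at 1.55. The related factor ATF5 was not called (change -0.16). Of 31 proteasome subunits 16 rose and 4 fell, none by 2-fold.

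**Figure D3:**
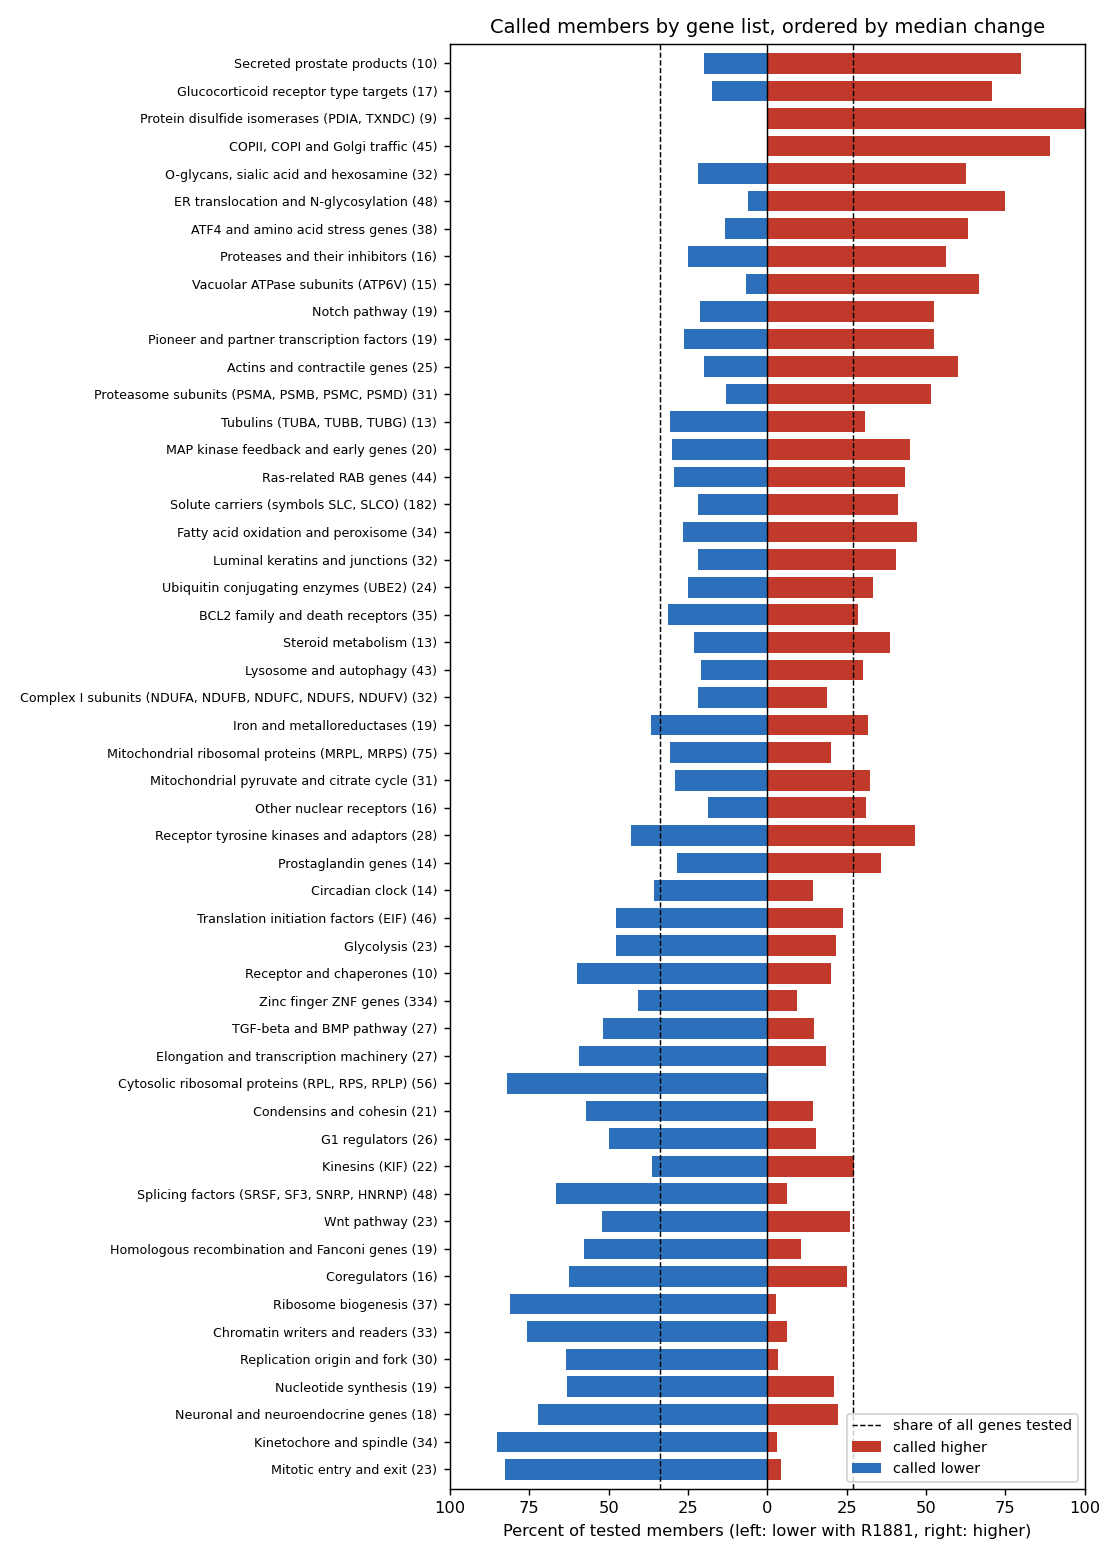
Percent of tested members called higher (red, to the right) and lower (blue, to the left) with R1881 in each of the 52 gene lists and symbol families, ordered by median change, with the number tested in brackets; the dashed lines are the shares of all genes tested, 26.9% higher and 33.8% lower. Disulfide isomerases and COPII, COPI and Golgi traffic lead on the right, with all 9 members and 88.9% of members, and kinetochore and spindle genes 85.3% on the left.

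**Figure D4:**
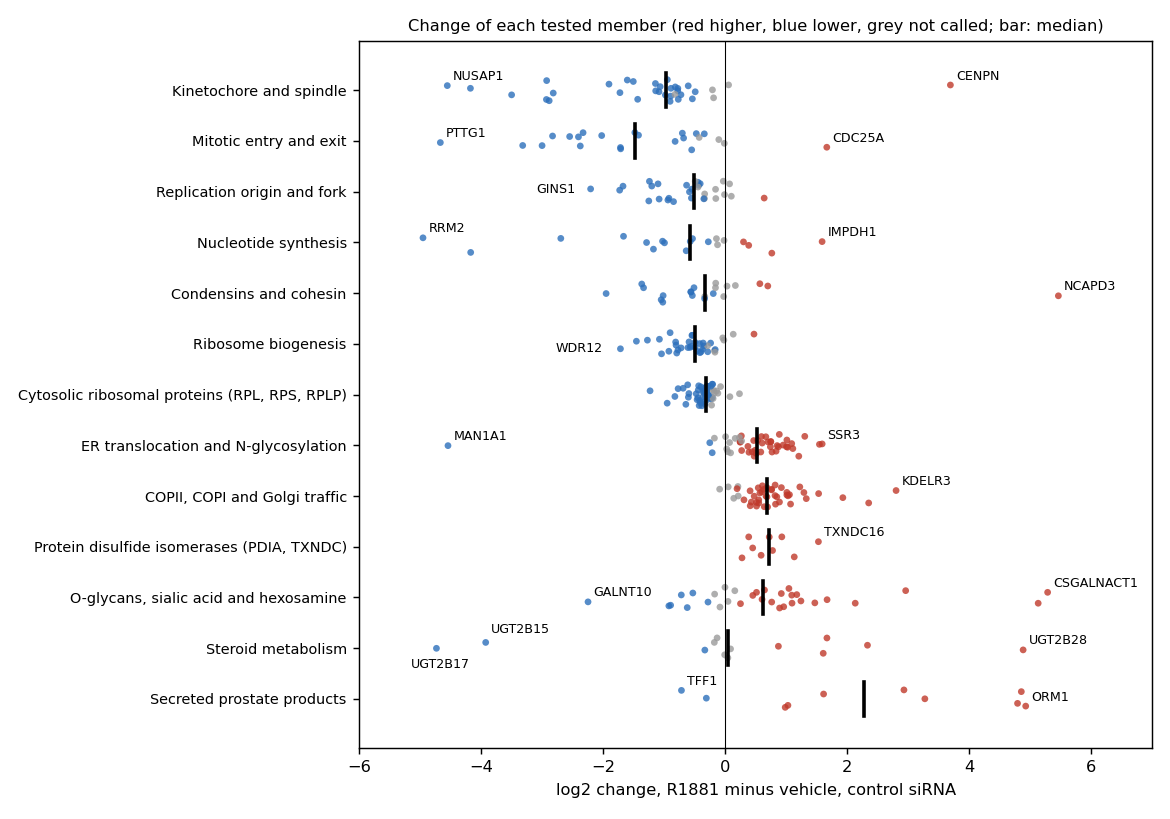
Change with R1881 in control siRNA cells (x axis, log2) of each tested member of 13 lists; red points were called higher, blue lower and grey not called, and the black bar is the list median. CENPN, CDC25A, IMPDH1 and NCAPD3 stand to the right of lists that lie mostly below 0, and MAN1A1 stands at -4.55 in a list with a median of 0.52.

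Genes of energy metabolism and transport moved in both directions. Of 23 glycolysis genes 5 rose and 11 fell (47.8% lower where all genes had 33.8%), with a median of -0.20. PFKFB2, which makes the activator of phosphofructokinase, was at 5.90, 5.89 and 5.73 in vehicle and 8.67, 8.62 and 8.80 in R1881, and the hexokinase HK1 rose by 1.69. PFKM, a phosphofructokinase itself, was at 10.40, 10.52 and 10.69 and fell to 8.62, 8.44 and 8.62. LDHB, PKM and LDHA, the last steps of the pathway, fell by 1.49, 1.21 and 0.76. Of 31 genes of pyruvate use and the citrate cycle 10 rose (32.3%) and 9 fell (29.0%), near the shares of all genes. The malic enzyme ME1 was at 1.60 and the pyruvate carrier MPC2 at 1.38. Among 34 genes of fatty acid oxidation and the peroxisome 16 rose and 9 fell (47.1% higher where all genes had 26.9%). The racemase AMACR, a marker of prostate carcinoma, rose by 2.08 and the isomerase ECI2 by 2.12, while catalase (CAT) fell by 0.98. Of 182 solute carriers 75 rose and 40 fell (41.2% higher). SLC43A1, a carrier of large neutral amino acids, was at 4.75, 5.04 and 5.11 in vehicle and 8.81, 8.70 and 8.62 in R1881. The nucleoside carrier SLC29A1 fell by 2.49, to an R1881 mean of 2.18, near background.

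Receptors and pathways of growth and development had strong members of both signs. Of 28 receptor tyrosine kinases and adaptors 13 rose (46.4%) and 12 fell (42.9%), where 26.9% of all genes rose and 33.8% fell. IGF1R, the receptor of insulin-like growth factors, was at 7.23, 7.05 and 7.17 in vehicle and 9.57, 9.62 and 9.64 in R1881, and the binding protein IGFBP3 rose by 3.10 while IGFBP2 fell by 2.02. GRB10, an adaptor that restrains this receptor, was at 11.22, 11.41 and 11.48 and fell to 8.35, 8.08 and 8.22. INPP4B, a lipid phosphatase that opposes AKT signalling, rose from 5.63, 5.33 and 5.53 to 8.54, 8.74 and 8.43, and the regulatory subunit gene PIK3R3 fell by 2.47. Of 23 Wnt pathway genes 6 rose (26.1%, near the share of all genes) and 12 fell (52.2%). The receptor FZD5 was at 8.40, 8.47 and 8.38 in vehicle and 11.76, 11.74 and 11.77 in R1881, the ligand WNT7B rose by 2.74, and the receptor FZD3 and the effector LEF1 fell by 2.81 and 1.79. Of 19 Notch genes 10 rose (52.6%) and 4 fell (21.1%), with the target HES1 at 3.15 and the ligand JAG2 and receptor NOTCH3 at -1.17 and -1.16. HES1 had a vehicle mean of 4.17, with 1 of 3 vehicle arrays above log2 4, so its change has no exact size. Of 27 genes of TGF-beta and BMP signalling 14 fell (51.9%) and 4 rose (14.8%). The BMP target ID3 was at 9.96, 10.07 and 10.00 and fell to 7.33, 7.76 and 7.48, the inhibitory SMAD7 fell by 1.81, and PMEPA1, a negative regulator of the pathway, rose by 3.06.

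Structural and nerve-type genes closed the description of the lists. Among 32 luminal keratins and junction genes 13 rose (40.6%) and 7 fell (21.9%), where 26.9% of all genes rose and 33.8% fell. The claudin CLDN8 was at 3.05 and the keratins KRT8 and KRT18 at 1.42 and 1.39, while CDH1 was not called (change 0.08). KRT19 was at 1.67 from a vehicle mean of 3.25, near background, so its change has no exact size. Tubulins moved both ways, TUBB2A by 1.38, TUBA1A by -2.51 and TUBB4A by -2.97, the last to an R1881 mean of 2.77, near background. Of 18 neuronal and neuroendocrine genes 13 fell and 4 rose, with a median of -0.93, the neuropeptide neurotensin (NTS) at -2.36 and the glutamate receptor GRIN3A at 2.42. Only 12 of the 18 were above log2 4 on all 6 arrays, 8 of them lower and 3 higher. NTS was at 2.54 in R1881 and GRIN3A at 3.66 in vehicle, near background, so these changes and the median have no exact size. Zinc finger genes with ZNF symbols, of which 334 were tested, fell in 136 and rose in 31, a share of 9.28% higher where all genes had 26.9%. Their median of -0.22 is small, and 6 rose and 22 fell by 2-fold or more. The nuclear receptor NR4A1 rose by 2.17 and the clock repressor BHLHE40 by 1.97, in lists of 16 and 14 genes of which 5 and 2 rose and 3 and 5 fell. NR4A1 had a vehicle mean of 3.83, near background, so its change has no exact size.

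Genes higher by 2-fold or more lay beside each other in the genome more often than their share of genes. Of 725 of them with a next tested gene on the chromosome, that gene was also higher by 2-fold in 116, where 7.09% of all genes were. For genes lower by 2-fold it was 98 of 723, where 7.07% of all genes were. Neighbours can share a promoter or overlap, and this was not tested. Runs of 3 or more numbered 31. On chromosome 16 a run of 6 joined MAF at 3.06, DYNLRB2 at 1.21, CDYL2 at 1.70, the long noncoding RNA ARLNC1 at 3.80, CMC2 at 2.04 and CENPN. DYNLRB2, with means of 3.49 in vehicle and 4.70 in R1881, passed the filter through the 3 R1881 arrays alone. It therefore had to differ, and it is included in the neighbour counts. ARLNC1 was under log2 4 on every vehicle array, so its change has no exact size. On chromosome 11 NCAPD3 stood beside VPS26B at 1.77, THYN1 at 1.13, ACAD8 at 2.30 and GLB1L2 at 2.26, so that CENPN and NCAPD3, the 2 largest exceptions among the division genes, each lay in a run of genes that rose. The kallikreins KLK3, KLK2 and KLK4 formed a run on chromosome 19 with CLEC11A at 1.18, and on the X chromosome the polyamine genes SMS and SAT1, at 2.55 and 1.58, lay on either side of PRDX4 and ACOT9, at 1.03 and 1.82. On chromosome 7 DDC lay between FIGNL1 at -2.37 and GRB10 at -3.16. A run of 6 lower genes on chromosome 3 held SERPINI1 and, further on, ACTRT3 at -3.50, near background in R1881 at 2.78, and MYNN at -3.02.

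Whether the R1881 effect was tied to the control siRNA was tested by the difference of effects, SRF siRNA minus control siRNA, in the same limma fit. In the silenced cells R1881 changed 53.1% of all genes tested. Over all genes 23.8% were called for this difference, 13.2% above 0 and 10.5% below. All 24 genes of the largest rises and falls kept their direction after SRF silencing. Among the 12 rises the difference was called below 0 in 7 and above 0 in 2, and among the 12 falls it was called above 0 in 9 and below 0 in 2. The genes were chosen for the size of their change with control siRNA, so these counts are a description. NCAPD3 rose by 2.92 in silenced cells, a difference of -2.54 ± 0.10 (SE, limma adjusted p = 3.64e-08). MYC was at 11.64 in vehicle and 10.86 in R1881 after silencing, a fall of 0.79 where it was 3.33 with control siRNA (difference 2.54 ± 0.12, adjusted p = 7.71e-08). PRAC1 and PEG3 also fell less, with differences of 2.10 and 2.04. KLK2 rose more, with a difference of 0.93 ± 0.12 (SE, limma adjusted p = 0.000159), but from a lower vehicle level. After silencing it was at 5.80 in vehicle and 11.67 in R1881, both under its 7.67 and 12.61 with control siRNA. CDC25A, which rose with control siRNA, was at 5.67 and 5.46 in silenced cells (difference -1.87, adjusted p = 0.000498). In the COPII, COPI and Golgi list the difference was below 0 in 26 of 45 genes and above 0 in none, in the translocation and N-glycosylation list below 0 in 26 of 48, and in ribosome biogenesis above 0 in 14 of 37 and below 0 in none. In the kinetochore and spindle list it was below 0 in 11 of 34 and above 0 in 7, with a median change of -1.72 after silencing against -0.97 with control siRNA, where many members lay near background.

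**Figure D5:**
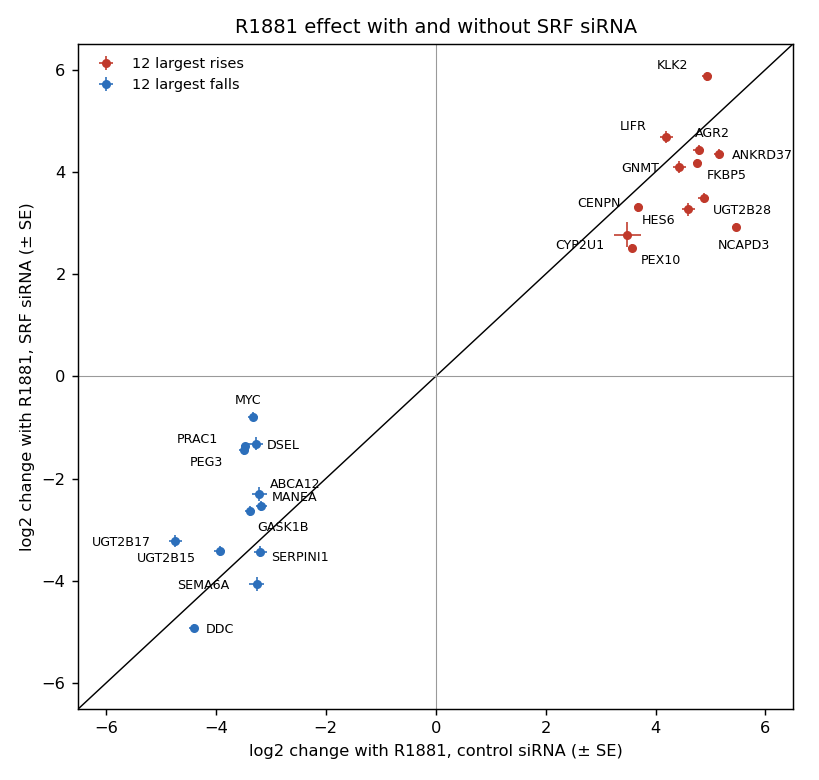
Change with R1881 in cells with control siRNA (x axis) and with SRF siRNA (y axis), log2 with SE bars, for the 12 largest rises (red) and the 12 largest falls (blue) with control siRNA; the diagonal is equality. MYC at -3.33 and -0.79 and NCAPD3 at 5.46 and 2.92 lie farther from the diagonal than KLK2 at 4.94 and 5.87.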

How the data were processed

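Messenger RNA of LNCaP cells was measured on 12 Affymetrix arrays, from 3.5 µg of total RNA each. The deposited values are log2 signals, made with GCRMA per the submitters' processing notes, with its version not given in the sources used here. No further normalization was applied. Of 54675 probe sets, 41091 had 1 platform symbol, of which 41037 were matched to RefSeq by gene number. Groups came from the labels, and limma 3.58.1 in R 4.3.3 fitted 1 mean per group, for 4 groups, to all 12 arrays. Its variances were moderated, and p-values were adjusted by Benjamini-Hochberg over 10265 genes. The fit was tested on simulated data.

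Probe sets above log2 4 on at least 3 arrays entered. Genes were named by a rule: the 12 largest rises and falls with both group means above log2 6, the 8 largest each way that crossed from under 4 to above 6, list members by size or role, KLK3, FKBP5 and TMPRSS2, runs of neighbours, and the smallest p for the difference. DOCK1, SERP1 and the cell type markers were outside it. The lists (38 by hand, 14 by symbol pattern) and the members were chosen with earlier results of these data known. Some genes are not analysed here. Replicate numbers did not pair the arrays: deviations of the same-numbered vehicle and R1881 arrays correlated at 0.027, -0.008 and 0.018. Promoters of 8514 tested genes were matched by symbol. Alternatives changed the filter, the floor, the probe set, the scaling, the variance model, the arrays, the block and the threshold. Figures used matplotlib 3.10.9 in Python 3.11.15.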

Additional observations from a re-analysis of the deposited data

Results flagged for a closer look

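The R1881 effect of a named gene was singled out where the difference of effects, SRF siRNA minus control siRNA, was called in limma (adjusted p under 0.05) and was at least 1 in size on the log2 scale. Of 222 named genes 59 met this, 26 above 0 and 33 below 0, and a further 81 were called at a smaller size. Over all genes tested 13.2% were called above 0 and 10.5% below. Most were named for their change with control siRNA, so the shares are a description. In 23 of the 59 at least 1 of the 4 group means was under log2 4, near background, so that the size of the difference is not exact.

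Genes that rose with control siRNA and rose less or not at all after silencing had differences below 0. Among secreted, membrane and signalling genes these were F5 at -2.8, SGK1 and IGFBP3 at -2.58 each, CLDN8 at -2.03, WNT7B at -1.92, MSMB at -1.89, SLC15A2 at -1.85, FZD5 at -1.15, SLC43A1 at -1.06 and STEAP4 at -1.0. SGK1 went from 5.16 to 7.66 with control siRNA and was at 6.03 and 5.96 after silencing. Among enzymes and traffic genes they were UGDH at -1.84, SEC24D at -1.57, UGT2B28 at -1.39, ACOT9 at -1.24, UBE2J1 at -1.14, AMACR at -1.11, and WIPI1 and PEX10 at -1.07 each. Among regulators they were CDC25A at -1.87, EAF2 at -1.77, AFF3 at -1.53, HES6 at -1.33, CREB3L2 at -1.29, NR4A1 at -1.27 and RAD54B at -1.1. A smaller rise was not always a lower R1881 level. With R1881, AFF3 was at 9.30 after silencing against 8.94 with control siRNA, and CREB3L2 at 7.22 against 6.84. Their vehicle means were higher after silencing, at 4.74 against 2.86 and 6.58 against 4.92, as was that of ACOT9 at 7.48 against 6.44. The chromosome 11 run of NCAPD3 at -2.54, THYN1 at -1.52, VPS26B at -1.46 and ACAD8 at -1.45 moved together, and CMC2 on chromosome 16 was at -1.26.

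NTS was at -3.9, ACTRT3 at -1.27 and MKI67 at -1.52, all lower with R1881 after silencing and all under log2 4 with R1881 in both siRNA groups. Their differences follow the vehicle level, which was higher after silencing, as in NTS at 8.78 against 4.91, and do not show a deeper fall.

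Differences above 0 were found mostly in genes that fell with control siRNA. Those above log2 4 in all groups fell less after silencing. They were TYMS at 2.59, MYC at 2.54, PRAC1 at 2.1, PEG3 at 2.04, DSEL at 1.96, UGT2B17 at 1.52, IER5 at 1.36 and GALNT10 at 1.08. DSEL and UGT2B17 began lower in vehicle after silencing, at 8.31 and 9.03 against 10.46 and 11.38 with control siRNA. Their R1881 means were also lower after silencing, at 6.99 against 7.19 and 5.82 against 6.64. Genes under 4 with R1881 and control siRNA, but above it with R1881 after silencing, have a difference without exact size. They were MMP16 at 3.57, BCHE at 2.69, BUB1B at 2.36, NUSAP1 at 2.34, PTTG1 at 2.29, UHRF1 at 1.47, CCNB2 at 1.22 and PRC1 at 1.05. ABCG2 at 2.73, OPRK1 at 1.59 and SLC29A1 at 1.55 were under 4 with R1881 in both siRNA groups, and for these the values do not show a smaller fall. The division genes here were named for their change with control siRNA and do not stand for their list, in which the difference was below 0 in 11 of 34 kinetochore and spindle genes and above 0 in 7.

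Genes that rose more after silencing were SNAI2 at 2.55, MAF at 1.7, CDKN2B at 1.61, BHLHE40 at 1.32, KRT19 at 1.21 and TWIST1 at 1.15, of which SNAI2, BHLHE40 and KRT19 were under 4 in vehicle after silencing. TFF1 was at 2.71, lower with R1881 with control siRNA (5.04 and 4.32) and higher after silencing (7.68 and 9.66).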

How the results depend on the processing

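The count of 6225 calls lay between 5755 and 5892 without any 1 of the 6 arrays, and the calls at 2-fold or more between 722 and 738 higher and 723 and 750 lower. With the replicate number as a block 6148 genes were called, and 2200 for the difference of effects against 2441 without it. Since the numbers did not pair the arrays, this is given only as a value. Counts moved by over 1.5 times in these settings. A limma treat test against 2-fold, which asks for more than a change of any size, called 802 genes, 447 higher and 355 lower. At an adjusted p under 0.01 the difference of effects was called in 1367 genes, 740 above 0 and 627 below, and with the lowest-mean probe set of each gene in 848 above 0. With the GAPDH end difference as a covariate, added after seeing the data, 3924 genes were called, 1490 of them higher. At 2-fold or more the counts moved less, to 666 higher and 892 lower, against 727 and 725 as reported. The end difference was at most 0.24 on the vehicle arrays and at least 0.45 on the R1881 arrays. With control siRNA the covariate is therefore not separate from the treatment, and the cause was not tested. Calls that were higher made up 44.3% as reported and 43.9% to 48.2% when the probe set or the scaling was changed, with 38% under the GAPDH covariate and 55.7% under the treat test.

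Over 222 named genes and their settings, 4116 of 4206 values kept the direction and the side of the threshold, 79 lost the call, 6 gained it and 5 reversed. The reversals were DOCK1 and SERP1 with the lowest-mean probe set (1.035 and -1.053), RFC5 with that probe set (-0.6069) and with the mean over probe sets (-0.2921), and UTP15 with the GAPDH covariate (-0.04702). The medians of steroid metabolism, prostaglandin genes, kinesins and complex I changed sign in 1 or more settings, those of the lysosome and BCL2 lists changed it with the GAPDH covariate, and those of the other lists kept it in every setting run. Signal near background limits the folds of genes under log2 4 in a group.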

Other observations

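Some lists that no comparison above turned on held strong single genes, and their counts are read against the 26.9% of all genes that rose and the 33.8% that fell. In the prostaglandin list 5 of 14 genes rose and 4 fell. PTGER4, a receptor of prostaglandin E, rose by 4.94, and ABCC4, which exports prostaglandins and cyclic nucleotides, rose by 2.64. Of 44 RAB genes 19 rose (43.2%) and 13 fell, with RAB3B and RAB27A, of regulated secretion, at 2.18 and 2.09. Among 19 genes of iron and metalloreductases 6 rose and 7 fell, with the haem oxygenase HMOX1 at 1.42 and the ferritin light chain FTL at -0.82. Of 35 genes of the BCL2 family and death receptors 10 rose and 11 fell. The death receptor TNFRSF10B rose by 1.69 and PMAIP1, a BH3-only protein, by 1.65, while BID, which links death receptors to mitochondria, fell by 1.81. Among 20 genes of MAP kinase feedback and early response 9 rose and 6 fell (30%), with the phosphatase DUSP5, near background in vehicle, at 3.79 and IER5 at -1.78. Of 22 kinesins 6 rose and 8 fell, with the chromosome-associated KIF22 at 1.24 and KIF4A at -1.91, near background in R1881 at 2.33. Of 25 actins and contractile genes 15 rose (60%) and 5 fell (20%). Among 24 ubiquitin conjugating enzymes 8 rose and 6 fell, with UBE2J1, of the endoplasmic reticulum, at 1.55.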
